A study of Homo sapiens with 4 samples.

Results

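The genes of the NF-kappaB system examined here were 10 genes taken by symbol, namely the subunit genes NFKB1, NFKB2, RELA and RELB, the inhibitor and feedback genes NFKBIA, TNFAIP3, TRAF1 and BIRC3, and the target genes IRF1 and ICAM1. Of these 10 genes, 6 were rows of the deposited table of 6828 genes (NFKB2, RELA, TNFAIP3, TRAF1, BIRC3 and ICAM1), and the other 4 (NFKB1, RELB, NFKBIA and IRF1) were not analysed here. The measurements came from A549 cells, a human lung adenocarcinoma line of epithelial type, infected with lentiviruses that expressed a control shRNA (shctrl) or an shRNA against the long noncoding RNA USP2-AS1 (shUSP2-AS1). RNA was extracted 72 h after infection, and 2 libraries of polyadenylated RNA were sequenced per group, which the study describes as biological replicates. The methods describe puromycin selection of infected cells, so both groups were infected cells of 1 line, and each library averages over all of its cells, so that fewer expressing cells and less RNA per cell cannot be told apart. Which USP2-AS1 hairpin was used is not given in the sources used here. The table was named for shUSP2-AS1 against shctrl, and its columns sh216 and scr were taken as these groups.

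NF-kappaB is a family of dimeric transcription factors built from the products of NFKB1, NFKB2, RELA, RELB and REL. In resting cells the dimers are held in the cytoplasm by IkappaB proteins, and stimulated receptors release them through the IKK kinase complex (canonical arm) or through processing of the NFKB2 precursor (noncanonical arm). Nuclear dimers bind kappaB sites and induce cytokines, adhesion molecules and survival genes, and also their own inhibitors, which closes a feedback loop. In epithelial tumor cells the pathway is known for driving chemokine secretion and resistance to cell death.

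Because NF-kappaB acts through kappaB sites, the promoter matches of the genes that the results turn on are shown first. The RefSeq windows (GRCh38.p14) run from 250 bases before to 50 bases after an annotated gene start, and a gene may have several starts. Both strands were searched for the kappaB consensus, a motif that is nearly its own reverse complement, so that overlapping matches on the 2 strands were merged. Windows were given for 9 of the 10 genes, and 6 of these 9 had a match (BIRC3, IRF1, NFKB1, NFKB2, NFKBIA and TNFAIP3), against 7.09% of all 27305 genes with a window. The 10 genes were chosen as parts or targets of the pathway, so a share above that of all genes may follow from this choice. Among the 6 genes measured, NFKB2, BIRC3 and TNFAIP3 had a match, while RELA, TRAF1 and ICAM1 had none in these windows. The consensus requires GGG at its start and CC at its end on either strand. A gene without a match may therefore still hold a kappaB site that departs from this form. In the stretches below, 5′ to 3′ on the strand of the gene, capitals mark the bases covered by a match, and CXCL1 and CCL20 are included as the chemokine genes with the largest decreases described further on.
NFKB2, chr10:102394461-102394490, plus strand: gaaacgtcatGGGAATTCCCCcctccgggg
BIRC3, distal, chr11:102317275-102317304, plus strand: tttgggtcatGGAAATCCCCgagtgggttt
BIRC3, proximal, chr11:102317339-102317368, plus strand: tattaccgctGGAGTTCCCCtaagtcctaa
TNFAIP3, chr6:137867188-137867217, plus strand: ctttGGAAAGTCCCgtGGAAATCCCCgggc
CXCL1, chr4:73869304-73869333, plus strand: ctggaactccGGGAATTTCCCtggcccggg
CCL20, chr2:227813753-227813782, plus strand: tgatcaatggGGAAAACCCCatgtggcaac

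Distances were counted from the RefSeq start of the window, which can differ from the gene start in the table. The TNFAIP3 stretch held 2 separate matches, the first of them 67 bases upstream of the RefSeq start at 137867259. In BIRC3 the matches lay 199 and 135 bases upstream of the start at 102317484, and in CXCL1 the match lay 79 bases upstream of 73869393. NFKB2 had 3 windows, and the stretch shown lay 107 bases upstream of the start at 102394578, which is inside the gene as the table delimits it. Further matches lay in the windows of NFKB2. A match is a description of letters, and binding was not measured.

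USP2-AS1, the targeted RNA, was counted with 24 and 22 reads under shctrl but 2 and 7 under shUSP2-AS1, and its log2 fold change was -2.39 ± 0.56 (SE), with an adjusted p of 0.000597 by limma. It was -1.78 without replicate 1 and -2.99 without replicate 2 of shUSP2-AS1, with an adjusted p below 0.05 in both. The 4 libraries held 10772788 to 14120472 reads on the listed genes. The table holds only genes with an adjusted p below 0.05 in the comparison of the authors, so nearly every listed gene passes a repeat of that comparison. Here 6811 of the 6812 genes tested did (100%), 49.4% lower and 50.6% higher in shUSP2-AS1 cells. For that reason a gene was called only with an adjusted p below 0.05 from limma and a fold change of at least 2, which 29.7% of the tested genes met, 13.5% lower and 16.1% higher. This split depended on the scaling. Here 922 genes were called lower and 1098 higher, but 1143 lower and 930 higher after RLE scaling of the listed genes. DESeq2, run on the listed genes only and so scaled by them too, gave 1146 lower and 952 higher. At these thresholds the authors report more upregulated than downregulated genes from their own DESeq2 comparison. Of the epithelial markers, 5 of 7 were listed, 3 lower and 2 higher in shUSP2-AS1, and their summed normalized count was 168247 to 179356 in shctrl and 106691 to 113273 in shUSP2-AS1. Of the leukocyte markers only ITGAX was listed (1 of 7), with a summed level of 87.0 to 97.8 in shctrl and 721 to 731 in shUSP2-AS1. Of the fibroblast markers, 2 of 6 were listed (COL1A1 and LUM, 263 to 295 against 555 to 634 in sum), and of 5 endothelial markers none was. The part of these shifts in the values below was not tested.

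Among the 6 measured genes, 3 were higher (NFKB2, BIRC3 and TRAF1) and 3 were lower (RELA, TNFAIP3 and ICAM1) in shUSP2-AS1 cells. The genes thus shared no direction. Only ICAM1 passed the fold change threshold, 1 of 6 genes (16.7%), against the 29.7% of all tested genes. The median absolute log2 fold change was 0.46 for the 6 genes and 0.69 for all genes tested. In none of the 6 genes did the libraries of the groups overlap, 3 lower (49.3% of all tested genes were lower without overlap) and 3 higher (50.6%).

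**Figure D1:**
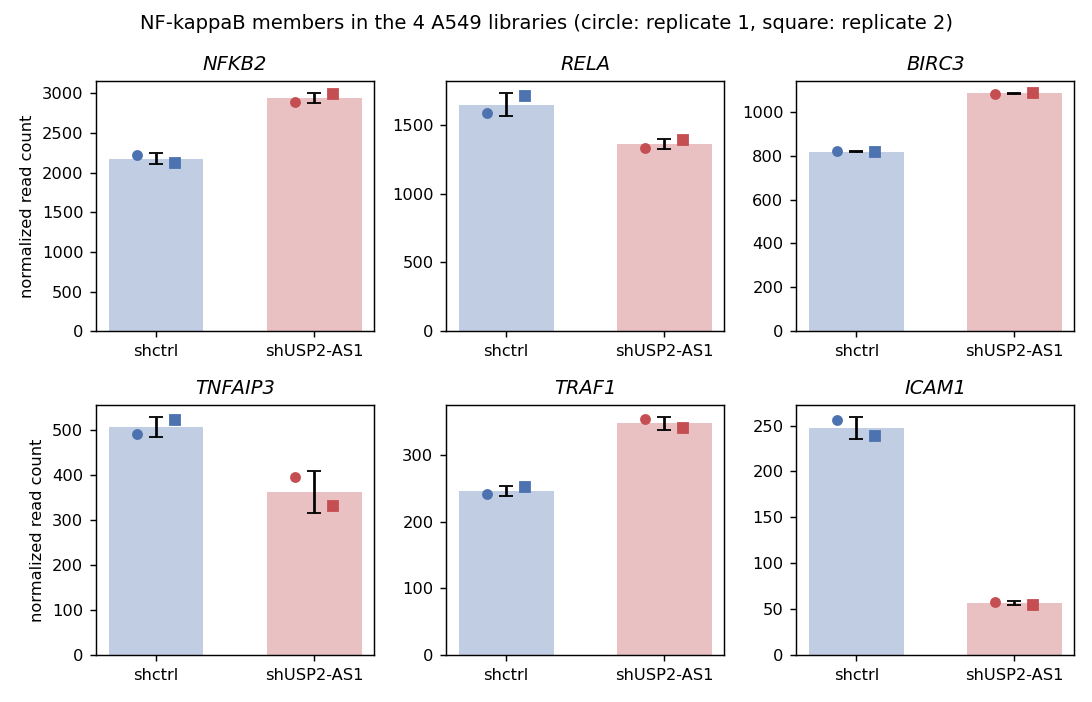
Normalized read count (vertical axis, starting at 0) of the 6 measured genes in the 2 shctrl and the 2 shUSP2-AS1 libraries, with points for the libraries, bars for the group mean and error bars for the SD (n = 2). NFKB2, BIRC3 and TRAF1 sit higher and RELA, TNFAIP3 and ICAM1 lower in shUSP2-AS1, and ICAM1 fell from a mean of 247 to 56.2.

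The subunit genes moved in opposite directions. NFKB2 (ENSG00000077150, plus strand of chromosome 10 of GRCh38, 102394110 to 102402524) encodes the precursor p100, which restrains dimers and is processed to the subunit p52. Its normalized read count was 2225 and 2128 under shctrl, against 2894 and 2986 under shUSP2-AS1. Both knockdown libraries were higher, and their mean was 35.1% above that of the controls. The log2 fold change was 0.43 ± 0.05 (SE), with a 95% confidence interval of 0.32 to 0.55 and an adjusted p of 8.27e-07 by limma. RELA (ENSG00000173039, minus strand of chromosome 11, 65653597 to 65663090) encodes p65, the main activating subunit of the canonical arm. It had 1588 and 1707 normalized reads in shctrl and 1332 and 1387 in shUSP2-AS1. The decrease in RELA had a log2 fold change of -0.28 ± 0.06 (SE), with a 95% confidence interval of -0.41 to -0.14 and an adjusted p of 0.000415 by limma, and 94.1% of all tested genes had a larger absolute change.

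The ratio of NFKB2 to RELA within a library does not depend on how the library was scaled. It was 1.40 and 1.25 in shctrl and 2.17 and 2.15 in shUSP2-AS1, so the balance between these transcripts was shifted toward NFKB2 by 0.71 on the log2 scale. With 2 libraries per group, an exact two-sided permutation test of such a ratio cannot go below p = 0.333, and ratios are given as values only.

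BIRC3 and TRAF1 moved with NFKB2. BIRC3 (ENSG00000023445, plus strand of chromosome 11, 102317450 to 102339403) encodes cIAP2, a ubiquitin ligase that protects from death receptor signaling and takes part in the breakdown of the kinase of the noncanonical arm. Its normalized read count was 819 and 818 in shctrl and 1082 and 1086 in shUSP2-AS1. The replicates of BIRC3 were nearly level, and its log2 fold change was 0.40 ± 0.07 (SE), with a 95% confidence interval of 0.26 to 0.55 and an adjusted p of 2.21e-05 by limma. TRAF1 (ENSG00000056558, minus strand of chromosome 9, 120902393 to 120929173) encodes an adaptor of TNF receptors that recruits cIAP proteins. It had 241 and 252 normalized reads in shctrl and 354 and 341 in shUSP2-AS1. Both shUSP2-AS1 libraries were again above both controls, and the log2 fold change was 0.50 ± 0.11 (SE), with a 95% confidence interval of 0.27 to 0.72 and an adjusted p of 0.000289 by limma. The ratio of NFKB2 to BIRC3 was 2.72 and 2.60 in shctrl and 2.67 and 2.75 in shUSP2-AS1, and that of NFKB2 to TRAF1 was 9.25 and 8.45 against 8.17 and 8.76. These were the only 2 of the 15 pairs whose ratios overlapped between the groups. The share of overlapping ratios among all pairs of listed genes was not computed, so this count has no background. A pair can be apart by little, since TRAF1 to BIRC3 was 0.294 and 0.308 in shctrl and 0.328 and 0.314 in shUSP2-AS1.

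TNFAIP3 moved the other way from these feedback genes. It encodes A20, a ubiquitin-editing enzyme that shuts off canonical signaling, and lies on the plus strand of chromosome 6 from 137867214 to 137883312 (ENSG00000118503). Its normalized read count was 491 and 523 in shctrl and 395 and 330 in shUSP2-AS1. The log2 fold change of TNFAIP3 was -0.49 ± 0.10 (SE), with a 95% confidence interval of -0.70 to -0.27 and an adjusted p of 0.00022 by limma. Its shUSP2-AS1 replicates differed by more of their mean than those of any other of the 6 genes, and the log2 fold change was -0.36 without replicate 2 and -0.62 without replicate 1 of shUSP2-AS1. Relative to BIRC3, TNFAIP3 went from ratios of 0.599 and 0.640 in shctrl to 0.365 and 0.304 in shUSP2-AS1. Relative to TRAF1 it went from 2.04 and 2.08 to 1.12 and 0.969.

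**Figure D2:**
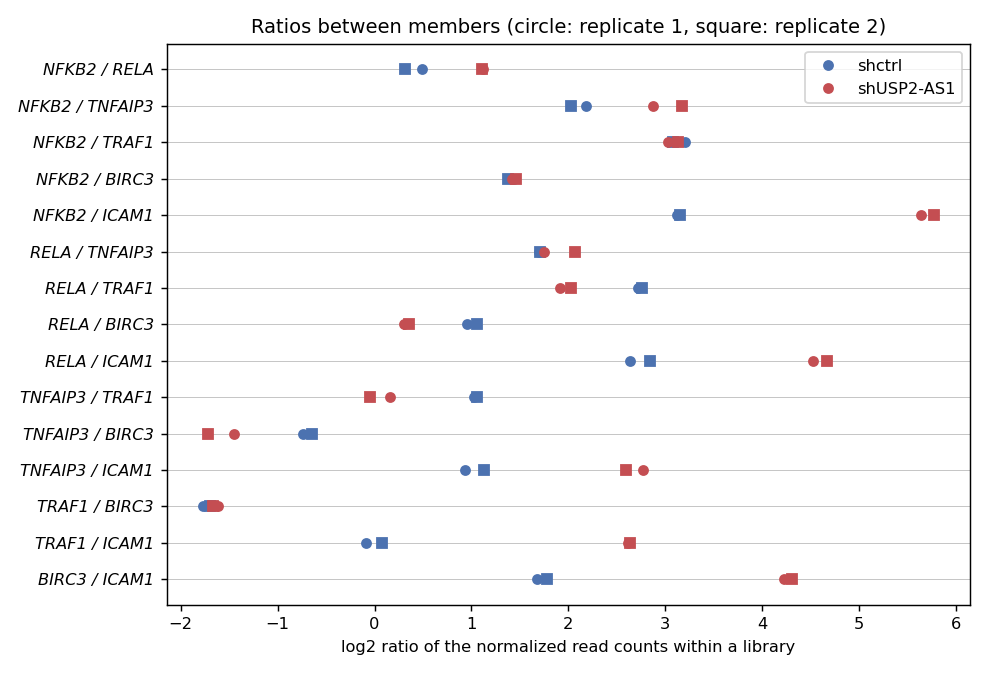
Log2 ratio of the normalized read counts of 2 genes within each library (horizontal axis) for all 15 pairs of the 6 measured genes, with 1 point per library. The points of the groups are apart in 13 pairs, widest in the pairs with ICAM1 and only slightly for TRAF1 over BIRC3. They intermingle for NFKB2 over TRAF1 and NFKB2 over BIRC3.

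ICAM1 showed by far the largest difference of the 6. It encodes an adhesion molecule of the cell surface that binds leukocyte integrins and is a classical target of RELA (ENSG00000090339, plus strand of chromosome 19, 10271093 to 10286615). The control libraries counted 265 and 217 reads and the knockdown libraries 55 and 62, or normalized read counts of 256 and 238 against 57.8 and 54.6. Both shUSP2-AS1 libraries were far below both controls. The group means were 247 ± 12.4 (SD, n = 2) and 56.2 ± 2.30 (SD, n = 2), 4.40-fold lower in shUSP2-AS1 cells. The log2 fold change was -2.12 ± 0.16 (SE), with a 95% confidence interval of -2.46 to -1.78 and an adjusted p of 1.39e-09 by limma. Of all tested genes, 2.72% had a lower log2 fold change. ICAM1 was also the only one of the 6 that passed a test against a fold change of 1.5 (adjusted p = 1.83e-07 from limma), which 41.5% of all tested genes passed, 19.8% as lower. The ratio of RELA to ICAM1 was 6.20 and 7.16 in shctrl and 23.0 and 25.4 in shUSP2-AS1.

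Per kilobase of the gene length given in the table, NFKB2 had the highest level in shctrl at 462 ± 14.7 (SD, n = 2) normalized reads, followed by RELA at 302 ± 15.4, BIRC3 at 109 ± 0.166, TNFAIP3 at 101 ± 4.54, ICAM1 at 71.7 ± 3.61 and TRAF1 at 55.0 ± 1.75. The neighbours BIRC3 and TNFAIP3 lay closest, with the libraries of TNFAIP3 at 97.7 and 104 and those of BIRC3 both at 109. In shUSP2-AS1 the order on the same scale was NFKB2 at 624 ± 13.9, RELA at 249 ± 7.04, BIRC3 at 144 ± 0.328, TRAF1 at 77.6 ± 2.16, TNFAIP3 at 72.2 ± 9.18 and ICAM1 at 16.3 ± 0.667. The libraries of TRAF1 (79.2 and 76.1) and TNFAIP3 (78.7 and 65.7) overlapped there, so that these neighbours could not be ordered, while ICAM1 moved from the fifth place to the last.

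**Figure D3:**
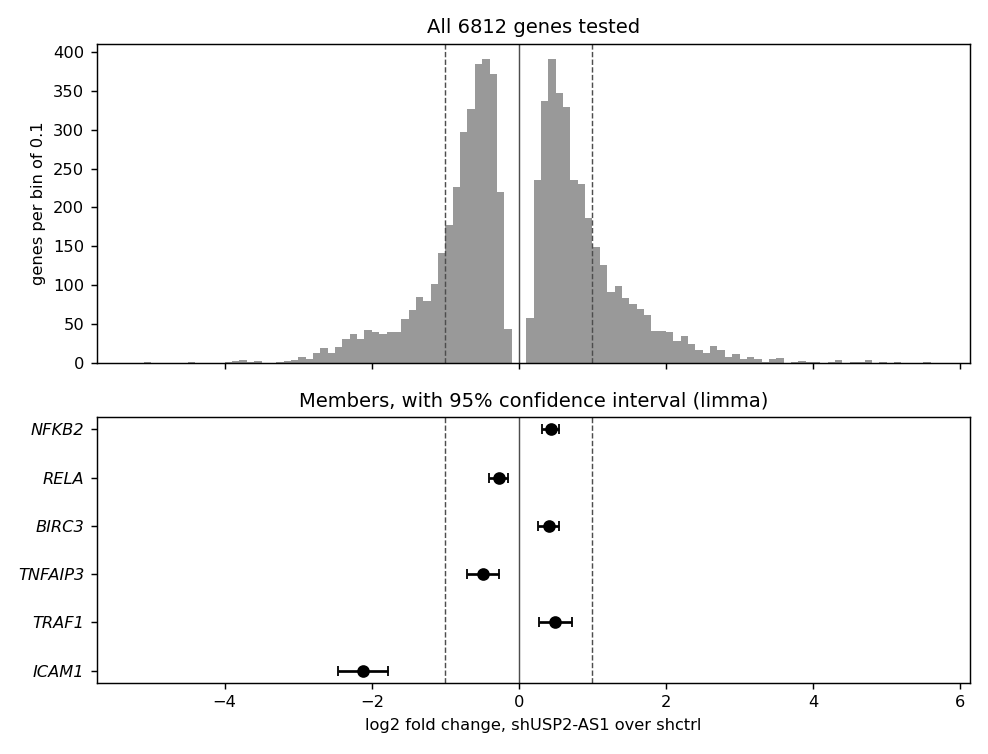
Upper panel, number of genes (vertical axis) by log2 fold change in bins of 0.1 for all 6812 genes tested; lower panel, log2 fold change of the 6 measured genes with 95% confidence intervals from limma. The upper panel has a gap at 0 because unchanged genes are not in the table, and of the 6 genes only ICAM1 lies beyond the dashed lines at -1 and 1.

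Of the 6 genes, ICAM1, BIRC3, RELA and TNFAIP3 overlap a gene on the opposite strand in GENCODE release 44 (LIMASI and ICAM4-AS1 for ICAM1, RELA-DT for RELA, WAKMAR2 for TNFAIP3, and an unnamed lncRNA for BIRC3), and NFKB2 and TRAF1 overlap none. None of these neighbours is listed, and the sources used here do not state a strand setting for the counting, so that reads of these genes and of their neighbours cannot be told apart.

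The rest of the pathway was described with 9 lists of textbook components, 131 genes in all, of which 65 were listed and tested. These lists were chosen with earlier results of these data known. A share in a list that differs from that of all tested genes may follow from this choice. Inside the cell, all but 1 of the tested components differed by less than 2-fold. The subunits, IkappaB proteins, kinases, adaptors and ubiquitin-editing regulators together gave 26 tested genes of 55, with 13 lower and 13 higher, and 1 was called (3.85%, against 29.7% of all tested genes). That gene was NFKBID, an atypical nuclear IkappaB protein, with 129 and 97.8 normalized reads in shctrl and 38.9 and 26.4 in shUSP2-AS1 and a log2 fold change at -1.77 ± 0.25 (SE), with an adjusted p of 2.94e-06 by limma. The other tested IkappaB genes were BCL3 with a log2 fold change of -0.51, NFKBIZ with 0.48 and NFKBIE with 0.53.

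Among kinases and their partners, 6 of 13 were tested, 4 lower and 2 higher, with none called. TAB2, which links the kinase TAK1 to ubiquitin chains, had a log2 fold change of -0.85, TAB1 of -0.42, TANK of 0.70 and RIPK2, the kinase of NOD receptors, of 0.55. MAP3K14, the kinase of the noncanonical arm, had a log2 fold change of -0.37, as did TBK1 (both named after their values were seen). For MAP3K14, 85.1% of all tested genes had a larger absolute change. Of the adaptors, 5 of 16 were tested and none was called. TRAF3, which keeps the noncanonical arm off, had 1840 and 1956 normalized reads in shctrl and 1150 and 1123 in shUSP2-AS1, for which the log2 fold change was -0.74. MYD88, the adaptor of Toll-like and interleukin-1 receptors, had 836 and 771 against 1393 and 1349, a log2 fold change of 0.77. MALT1 had -0.40 and TRADD 0.52. Of the ubiquitin-editing regulators, 9 of 15 were tested, 4 lower and 5 higher with none called, and beside TNFAIP3 and BIRC3 the values furthest from 0 were -0.73 for N4BP1 and 0.38 for TNIP1.

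Receptors that signal to NF-kappaB were higher in 9 of the 10 genes tested (17 in the list), against 50.6% of all tested genes, and 2 were called higher, against 16.1%. These were TLR3, a sensor of double-stranded RNA, with 28.0 and 20.9 normalized reads in shctrl and 73.6 and 51.9 in shUSP2-AS1, and TLR1, with 39.6 and 34.1 against 84.1 and 82.8. Their log2 fold changes were 1.32 and 1.16. TNFRSF1A, the main TNF receptor, was the exception with -0.29. The median log2 fold change of the list was 0.75, and that of all tested genes 0.19.

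Ligands and cytokine targets were lower in 9 of the 10 genes tested (19 in the list), against 49.4% of all tested genes, and 8 were called lower, against 13.5%. Their median log2 fold change was -1.48. As this list was chosen with earlier results of these data known, its shares are a description and not independent evidence. CXCL1, a neutrophil chemokine, had 1897 and 1792 normalized reads in shctrl and 269 and 196 in shUSP2-AS1, the log2 fold change being -3.00 ± 0.11 (SE), with an adjusted p of 1.14e-13 by limma. CCL20, which attracts lymphocytes and dendritic cells, had 89 and 83 reads in shctrl and 3 and 1 in shUSP2-AS1, too few for a firm fold change. The other genes called lower were CXCL2, CXCL3, CXCL5, CXCL8, IL6 and IL32, named after their values were seen. CXCL1, CXCL2, CXCL3, CXCL5 and CXCL8 lie close together on chromosome 4 (73740541 to 74099196), and each was counted as a separate gene. For the secreted proteins of IL6 and CXCL8 the study reports the opposite direction, with higher extracellular levels by ELISA in knockdown A549 cells. That assay was done later than the 72 h of these libraries, and protein was not measured here. IL6 lay near the threshold (log2 fold change -1.03) and was no longer called with upper quartile scaling (-0.97), without replicate 1 of shctrl (-0.81) or without replicate 1 of shUSP2-AS1 (-0.90). CSF1 was lower without a call (log2 fold change -0.37, also named after its value was seen) and TNFSF15 was higher (0.74). Of the 10 genes, 9 had a promoter window. The kappaB consensus was held by 7 of these 9 (CCL20, CXCL1, CXCL2, CXCL3, CXCL5, IL32 and IL6). Of all listed genes with a window, 9.36% held it. The list holds textbook targets of the pathway, so a share above that of all listed genes may follow from this choice. Whether these sites had a part in the decrease was not tested. The decrease of these cytokines had the direction of ICAM1, and also of RELA and TNFAIP3 with smaller values, while NFKB2, BIRC3 and TRAF1 went the other way. Since 49.4% of all tested genes were lower, a shared direction does not link these genes.

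**Figure D4:**
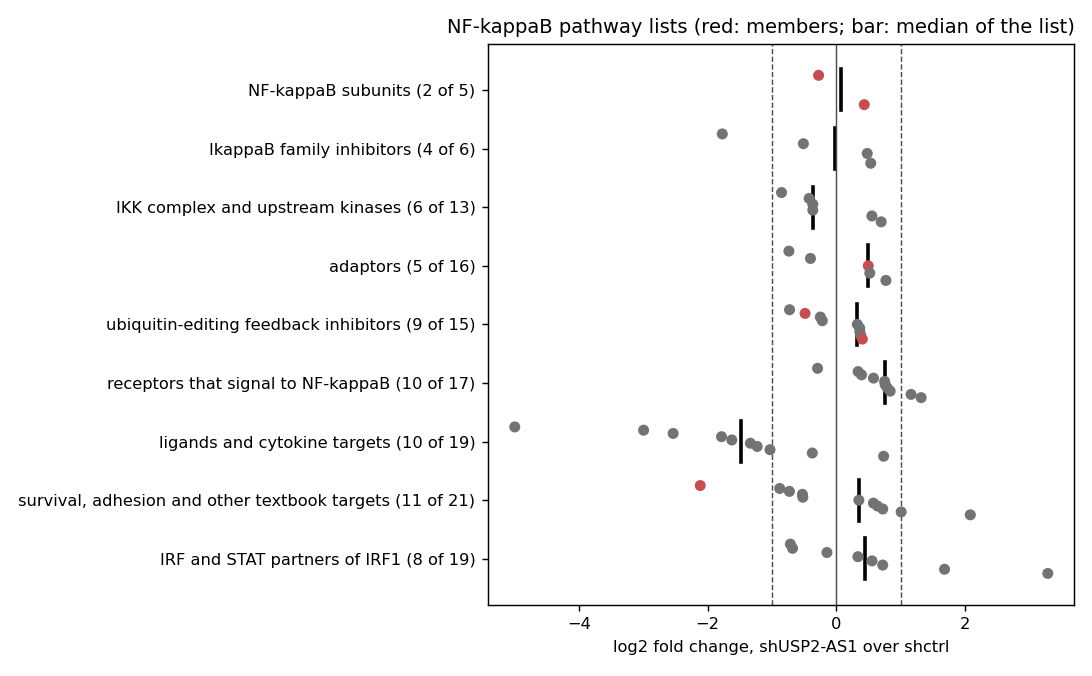
Log2 fold change (horizontal axis) of each tested gene in the 9 lists of the NF-kappaB pathway, with red points for the measured genes of the group described above, a black bar for the median of a list and, after each name, the number tested of the number in the list. Nearly all genes of the intracellular lists lie between the dashed lines at -1 and 1, while 8 of the 10 ligands and cytokine targets lie below -1.

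Other textbook targets moved both ways. Of 21, 11 were tested, 5 lower and 6 higher. The share called was 27.3%, near the 29.7% of all tested genes, with 1 lower and 2 higher. Beside ICAM1 (called lower), ATF3 and KLF6, both stress-induced transcription factors, were called higher, with log2 fold changes of 2.08 and 1.01. KLF6 sat on the threshold and was not called under 6 of 13 alternatives, where its log2 fold change was as low as 0.89, while ATF3 was called under all 13. SDC4, a cell surface proteoglycan, had -0.88. ATF3 had 239 and 246 normalized reads in shctrl and 997 and 1065 in shUSP2-AS1.

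IRF1 itself was not analysed here, and of the 19 genes in the list of its IRF and STAT partners 8 were tested, 3 lower and 5 higher. The 2 called, 25% against 29.7% of all tested genes, were both higher. They were IRF7, the regulator of late interferon expression, and SOCS1, an inhibitor of JAK kinases. IRF7 had 8.70 and 8.79 normalized reads in shctrl and 98.8 and 89.8 in shUSP2-AS1, the log2 fold change being 3.29 ± 0.31 (SE), with an adjusted p of 2.29e-08 by limma. SOCS1 had 12.6 and 11.0 against 43.1 and 37.0, a log2 fold change of 1.68. IRF3, the factor activated by RNA and DNA sensors, had -0.72 and SOCS3 -0.68.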

How the data were processed

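RNA-seq of A549 cells was analysed for 2 shctrl and 2 shUSP2-AS1 libraries. Per the labels, the authors aligned reads to hg38 with HISAT2 (version 2.0.5), counted them with featureCounts (version 1.5.0-p3) and compared groups with DESeq2 (version 1.20.0). The deposited signal of a gene in a library was its reads over the size factor of that library, given for 6828 genes beside the fold changes and p-values of the authors, which were not used. The deposited adjusted p-value was read only to test the filter, and 0 genes had one of 0.05 or more. Dividing by the value of 1 read gave whole reads (within 0.01) for 100% of values in each library.

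Genes averaging 10 or more were kept, and log2(value + 1) was modelled in limma (version 3.58.1, R version 4.3.3), lmFit and eBayes with a trend, with Benjamini-Hochberg adjustment over 6812 genes. This scale understates changes of low genes. The listed genes had been selected on these same libraries, so standard errors, intervals and adjusted p-values estimated over them can be too small. As alternatives, the recovered reads of the listed genes were tested with DESeq2 (version 1.42.0) and with the quasi-likelihood test of edgeR (version 4.0.16). Scripts were tested on simulated data. The replicate number was tried as a block, although equal numbers showed no shared deviation (correlation -0.04 across genes). The spread of replicates exceeded counting noise, with 3.76 (shctrl) and 3.84 (shUSP2-AS1) as chi-square per degree of freedom. Named genes are the 10 chosen and, per list, the 2 with the largest change in each direction, others being marked as named after their values were seen. Genes and lists were chosen with earlier results of these data known. Promoter sequences are those of RefSeq.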

Additional observations from a re-analysis of the deposited data

How the results depend on the processing

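Over the scalings, filters, pseudocount, count tests, replicate block and left-out libraries, the 6 measured genes kept their direction. With all 4 libraries their adjusted p also stayed below 0.05 in these settings. This was nearly fixed in advance, since these genes were listed for an adjusted p below 0.05 on the same libraries. In the main fit 6811 of the 6812 genes tested passed. Log2 fold changes ranged from 0.32 to 0.49 for NFKB2, -0.39 to -0.22 for RELA, 0.29 to 0.46 for BIRC3, 0.38 to 0.56 for TRAF1, -0.62 to -0.36 for TNFAIP3 and -2.26 to -2.06 for ICAM1. RLE scaling of the listed genes shifted the median of all genes by -0.12 and DESeq2, scaled by the same genes, by -0.11. DESeq2 standard errors were larger for all 6 genes, such as 0.17 in place of 0.11 for TRAF1 and 0.25 in place of 0.16 for ICAM1. In the test against a fold change of 1.5, NFKB2 (0.43), RELA (-0.28), BIRC3 (0.40), TRAF1 (0.50) and TNFAIP3 (-0.49) did not pass (adjusted p of 1 each from limma), since this test asks for more than 1.5-fold.

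Without a fold change threshold 6811 genes were called in place of 2020, which follows from the listed genes. With a mean of at least 100, 2 pathway genes were called higher in place of 6, since TLR1, TLR3, IRF7 and SOCS1 were not tested there, 6 cytokine genes were called lower in place of 8, since CCL20 and IL6 were not tested, and the median log2 fold change of all genes tested moved from 0.19 to -0.23. KLF6 lost its call with RLE and TMM scaling, edgeR, DESeq2, and without shctrl replicate 1 or shUSP2-AS1 replicate 2. With the replicate number as a block, 2020 genes were called, the standard error of ICAM1 was 0.18 in place of 0.16, and neither the calls on the 6 genes nor the pathway counts changed. The cause of shifts in the other settings was not tested. The looser motif, GGG and CC with any 5 bases between them on either strand, was found for all 9 genes with a promoter window in place of 6. It was also found for 61.7% of all genes with a window and for 80.9% of the listed genes with one. Genes with few reads, such as CCL20 and USP2-AS1, are limited by depth.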
